A study of Homo sapiens with 9 samples.

Results

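The interleukin-6 (IL-6) receptor and JAK-STAT3 axis was followed through 10 genes chosen by symbol, of 38478 gene rows in the deposited table. They are the receptor chains IL6R and IL6ST, the kinases JAK1, JAK2 and TYK2, the transcription factor STAT3, the inhibitors SOCS1 and SOCS3, and the serine/threonine kinases PIM1 and PIM2. All 10 were found and all 10 passed the filter on low counts, among 13262 genes tested. Libraries came from OPM-1, a human cell line established from plasma cell myeloma and labelled WT in genotype, grown in RPMI with 10% FBS and no further treatment. The cells carried stably expressed RNAs against luciferase (gLuc, a control without a human target), against FBXW7 (gFBXW7), or against FBXW7 and KMT2D together (gFBXW7_gKMT2D). Each group had 3 libraries, labelled as independent biological replicates, so all 9 share 1 cell line and 1 culture medium. Neither the mode of action of these RNAs nor whether the cells are clones is stated in the labels. The series asks how loss of FBXW7, a substrate receptor of an SCF ubiquitin ligase, and its combination with loss of KMT2D, a histone H3 lysine 4 methyltransferase, affect messenger RNA.

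IL-6 binds its receptor chain IL6R, and the complex recruits the shared signal-transducing chain gp130, the product of IL6ST. The kinases JAK1, JAK2 and TYK2 sit on the inner part of gp130 and phosphorylate it, STAT3 docks there, is phosphorylated and enters the nucleus, and SOCS3 and SOCS1 are made in return and damp the receptor and the kinases. In plasma cells and myeloma IL-6 is a classical growth and survival factor, and the PIM kinases, which are active as soon as they are made, are among the genes that STAT3 can induce.

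Upstream sequences are shown for the 2 members with an unadjusted p under 0.05 in a comparison below (IL6R and SOCS3), for the other receptor chain IL6ST, and for PIM2, the most abundant member. They come from RefSeq (GRCh38.p14), which listed 16 start sites for 10 of 10 members. Each window is the 250 bases before a start site, printed 5′ to 3′ on the gene's strand, less any bases that GENCODE v29 places in an exon. Capitals mark the GC box GGGCGG on either strand, a common element of promoters without a TATA box.
IL6R (chr1:154405093-154405192, + strand): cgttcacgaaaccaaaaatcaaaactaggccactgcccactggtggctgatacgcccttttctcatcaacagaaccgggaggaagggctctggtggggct
SOCS3 (chr17:78360926-78361175, - strand): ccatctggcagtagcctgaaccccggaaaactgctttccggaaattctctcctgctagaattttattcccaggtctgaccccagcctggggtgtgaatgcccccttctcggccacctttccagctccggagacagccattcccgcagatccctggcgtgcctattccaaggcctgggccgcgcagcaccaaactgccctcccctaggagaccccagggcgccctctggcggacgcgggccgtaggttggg
IL6ST (chr5:55994994-55995166, - strand): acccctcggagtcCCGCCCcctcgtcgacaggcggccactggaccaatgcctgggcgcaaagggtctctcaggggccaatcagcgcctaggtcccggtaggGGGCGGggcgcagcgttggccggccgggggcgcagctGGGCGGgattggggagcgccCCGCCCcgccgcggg
PIM2 (chrX:48919025-48919274, - strand): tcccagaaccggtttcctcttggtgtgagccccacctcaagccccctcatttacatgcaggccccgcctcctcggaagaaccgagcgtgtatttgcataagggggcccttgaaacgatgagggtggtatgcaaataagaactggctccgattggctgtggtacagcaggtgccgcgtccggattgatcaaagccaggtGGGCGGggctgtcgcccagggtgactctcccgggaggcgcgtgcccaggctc
The STAT recognition pattern TTCNNNGAA, which reads the same on both strands, was in 0 of the 16 member windows and in 2306 of 35116 windows of all genes (6.57%). The GC box was in 7 of the 16 windows, with 4 copies upstream of IL6ST and 1 upstream of PIM2, and in 14973 of all windows (42.6%). With no STAT match, the 2 patterns did not overlap. The GC box was added after the first search. The SOCS3 starts listed by RefSeq lie 848 and 410 bases from the GENCODE v29 start of the gene, and only the window of the first is printed. The SOCS3 windows did not cover the bases just before the GENCODE start, so that stretch was not searched for either pattern. The windows of IL6R and SOCS3 held no GC box.

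The libraries held 16337492 to 27076242 counts. Gene counts were normalised to CPM (the share of a library, scaled by TMM), differences are log2 fold changes from a single edgeR quasi-likelihood model of the 9 libraries, and a gene was called when its Benjamini-Hochberg adjusted p over all 13262 genes was under 0.05. FBXW7 (45.2 to 71.7 CPM) and KMT2D (28.6 to 107.0 CPM) were present in every library and neither was called in any comparison. FBXW7 differed from gLuc by 0.12 in gFBXW7 and 0.11 in gFBXW7_gKMT2D (SE 0.18 for both), and KMT2D by -0.14 in gFBXW7_gKMT2D (SE 0.45), so no lower FBXW7 transcript level marked the targeted groups, and how the RNAs act is not stated. All 9 plasma cell markers examined were expressed, from CD38 (7.77 to 13.9 RPKM) to JCHAIN (5458 to 7476 RPKM). Of 21 markers of B cells, T cells, myeloid, stromal, epithelial and erythroid cells, only the haemoglobin gene HBB (448 to 809 counts) had more than 4 counts in a library, while the erythroid marker HBA1 had at most 1. Counts in the 84 cytosolic ribosomal protein genes differed between replicates, from 5.03% to 11.2% of a library, and gFBXW7_gKMT2D library 3 had the highest share.

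The axis was expressed over a wide range, from PIM2 at the top to the 2 SOCS inhibitors at the bottom. To compare genes, levels are given per transcript length as the deposited RPKM (reads scaled by transcript length and library total), as mean ± SD over the 9 libraries. PIM2 stood at 290 ± 17.5 RPKM, rank 228 of all gene rows (percentile 99.4), and its mean was 16.0 times that of the next member. JAK1 (18.1 ± 6.06 RPKM), TYK2 (17.2 ± 3.86), IL6R (16.9 ± 3.10), IL6ST (15.0 ± 5.78) and STAT3 (13.8 ± 1.21) followed.

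In that order of 5, each neighbour's range overlapped the next, and the first of a neighbouring pair was higher in only 4 or 5 of the 9 libraries. The order within neighbouring pairs is thus not set by these data. Members further apart differed more steadily, as JAK1 lay above STAT3 in every library except gFBXW7_gKMT2D library 3 (8.78 against 13.2 RPKM). PIM1 was lower (8.62 ± 1.19 RPKM, below STAT3 in 9 of 9 libraries), then JAK2 (2.68 ± 0.743, below PIM1 in 9 of 9), and in both cases the ranges did not overlap. SOCS3 (1.16 ± 0.383 RPKM) lay below JAK2 within each of the 9 libraries, although the ranges overlapped. SOCS1 (0.797 ± 0.235 RPKM) was lower than SOCS3 in 8 of 9.

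**Figure D1:**
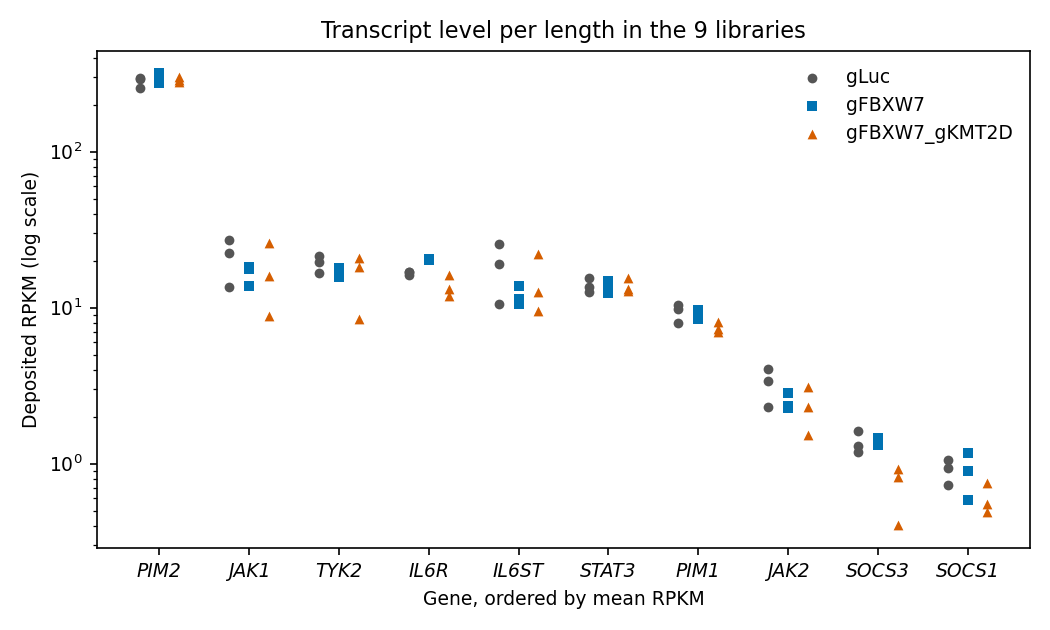
Deposited RPKM (log axis) of the 10 members in each of the 9 libraries, ordered by mean, with points coloured by group. PIM2 stands alone near 290 RPKM, 5 members from JAK1 to STAT3 overlap at means of 13.8 to 18.1, and SOCS3 and SOCS1 lie lowest.

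No member was called in any of the 3 comparisons, which share libraries with each other. In gFBXW7 against gLuc, which concerns the FBXW7-targeting RNA alone, 0 of 10 members were called beside 0% of all genes tested (1 gene by the DESeq2 Wald test). None had an unadjusted p under 0.05 (1.58% of all genes did), and IL6R was the one member whose groups did not overlap (higher in gFBXW7, as for 4.37% of all genes). In gFBXW7_gKMT2D against gLuc, which concerns both RNAs together, 0 of 10 were called beside 0.0528% of all genes (7 genes). SOCS3 alone had an unadjusted p under 0.05 there (3.61% of all genes did, 1.47% in that direction) and alone had groups that did not overlap, being lower (3.69% of all genes). In gFBXW7_gKMT2D against gFBXW7, which concerns the added KMT2D-targeting RNA, 0 of 10 were called beside 0.0603% of all genes (8 genes). SOCS3 and IL6R had an unadjusted p under 0.05 (4.22% of all genes did, 1.92% in that direction), and both were lower with no overlap between the groups (5.20% of all genes). Over the 10 members the median log2 fold change was -0.014, -0.27 and -0.085 in the 3 comparisons, beside -0.0042, 0.00023 and 0.022 over all genes tested.

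**Figure D2:**
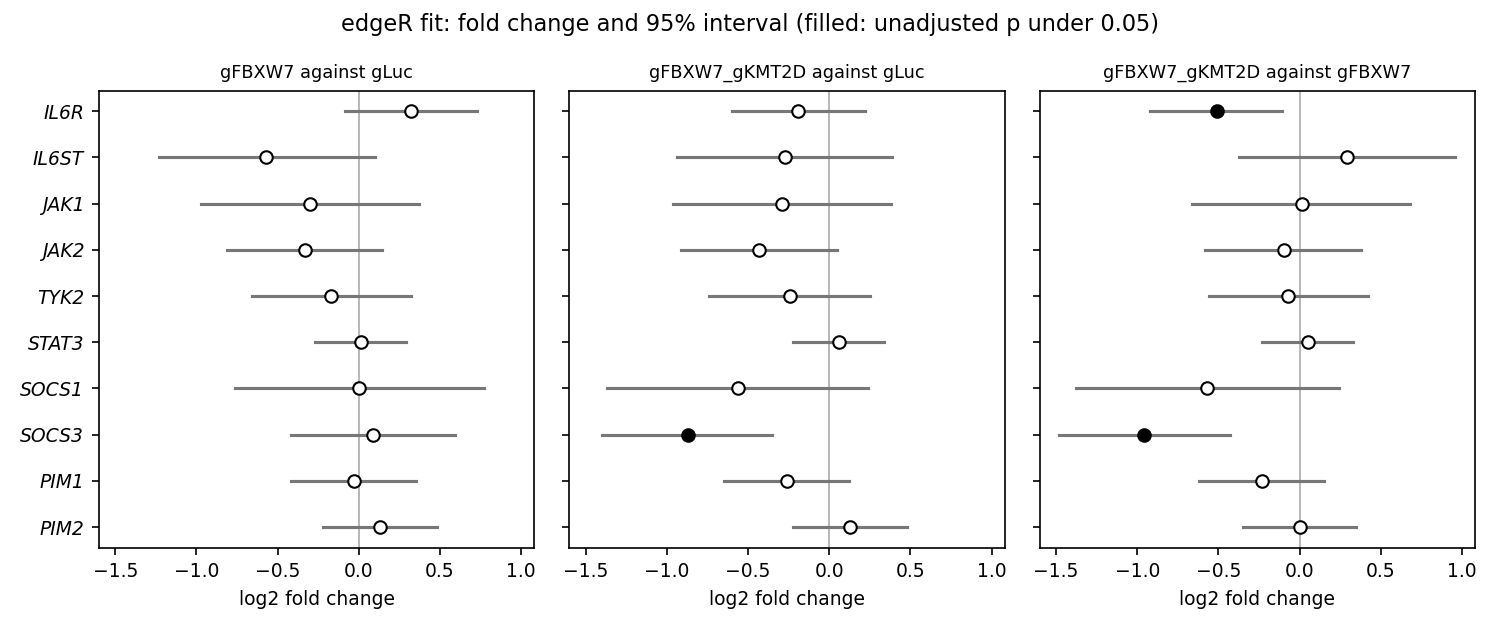
Log2 fold change of each member in the 3 comparisons (points) with 95% intervals from the edgeR fit (bars). Filled points have an unadjusted p under 0.05, and these are SOCS3 at -0.87 and -0.96 and IL6R at -0.51. No member was called after adjustment over all genes.

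IL6R, which encodes the chain that binds IL-6, was lowest in 2 of the 3 gFBXW7_gKMT2D libraries (chromosome 1, 154405193 to 154469450, + strand, GRCh38; its upstream window is printed above). Its 3 gLuc libraries held 117, 105 and 106 CPM, the gFBXW7 libraries 142, 137 and 132 CPM, and the gFBXW7_gKMT2D libraries 79.6, 80.7 and 128 CPM. The gFBXW7 libraries thus lay above those of gLuc (as for 4.37% of all genes) and above those of gFBXW7_gKMT2D (as for 5.20%). The second margin was thin, at 132 against 128 CPM. In gFBXW7_gKMT2D, library 3 stood apart from its 2 replicates and within the span from gLuc to gFBXW7. The group means were 109 ± 6.66, 137 ± 4.95 and 96.0 ± 27.5 CPM (SD, n = 3).

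Against gFBXW7, IL6R in gFBXW7_gKMT2D differed by -0.51 (log2; SE 0.18, 95% interval -0.92 to -0.11, unadjusted p = 0.019, adjusted p = 1.0). In gFBXW7 against gLuc the difference was 0.32 (SE 0.18, adjusted p = 0.96), and in gFBXW7_gKMT2D against gLuc it was -0.19 (SE 0.18, adjusted p = 0.90). In these bulk samples, fewer cells with the transcript and less of it per cell cannot be told apart. The scaling mattered for the overlap of groups. On the deposited RPKM scale, which divides by total counts, all 3 gFBXW7_gKMT2D libraries (11.9, 13.1 and 16.2 RPKM) lay below all 3 gLuc libraries (16.96, 16.3 and 16.9 RPKM). The margin was thin, at 16.23 against 16.29 RPKM, and the share of all genes without overlap on this scale was not counted. Without gFBXW7_gKMT2D library 3, the difference from gFBXW7 was -0.77 (adjusted p = 0.057).

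IL6ST, which encodes gp130, the chain shared by the receptors of the whole cytokine family, varied widely within the gLuc and gFBXW7_gKMT2D groups (chromosome 5, 55935095 to 55994993, - strand). It had 108, 182 and 240.1 CPM with gLuc, 109, 114 and 134 CPM with gFBXW7, and 126, 201 and 111 CPM with gFBXW7_gKMT2D. The gLuc libraries alone spanned 2.23-fold, and all groups overlapped. The largest difference was in gFBXW7 against gLuc, at -0.57 (SE 0.30, 95% interval -1.23 to 0.10, unadjusted p = 0.088, adjusted p = 0.96). It was -0.29 without gLuc library 3, -0.82 without gLuc library 1 and -0.28 with 1 surrogate variable (a term described below). It was -0.27 (SE 0.30) in gFBXW7_gKMT2D against gLuc and 0.29 (SE 0.30) against gFBXW7, with adjusted p-values of 0.90 and 1.0.

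**Figure D3:**
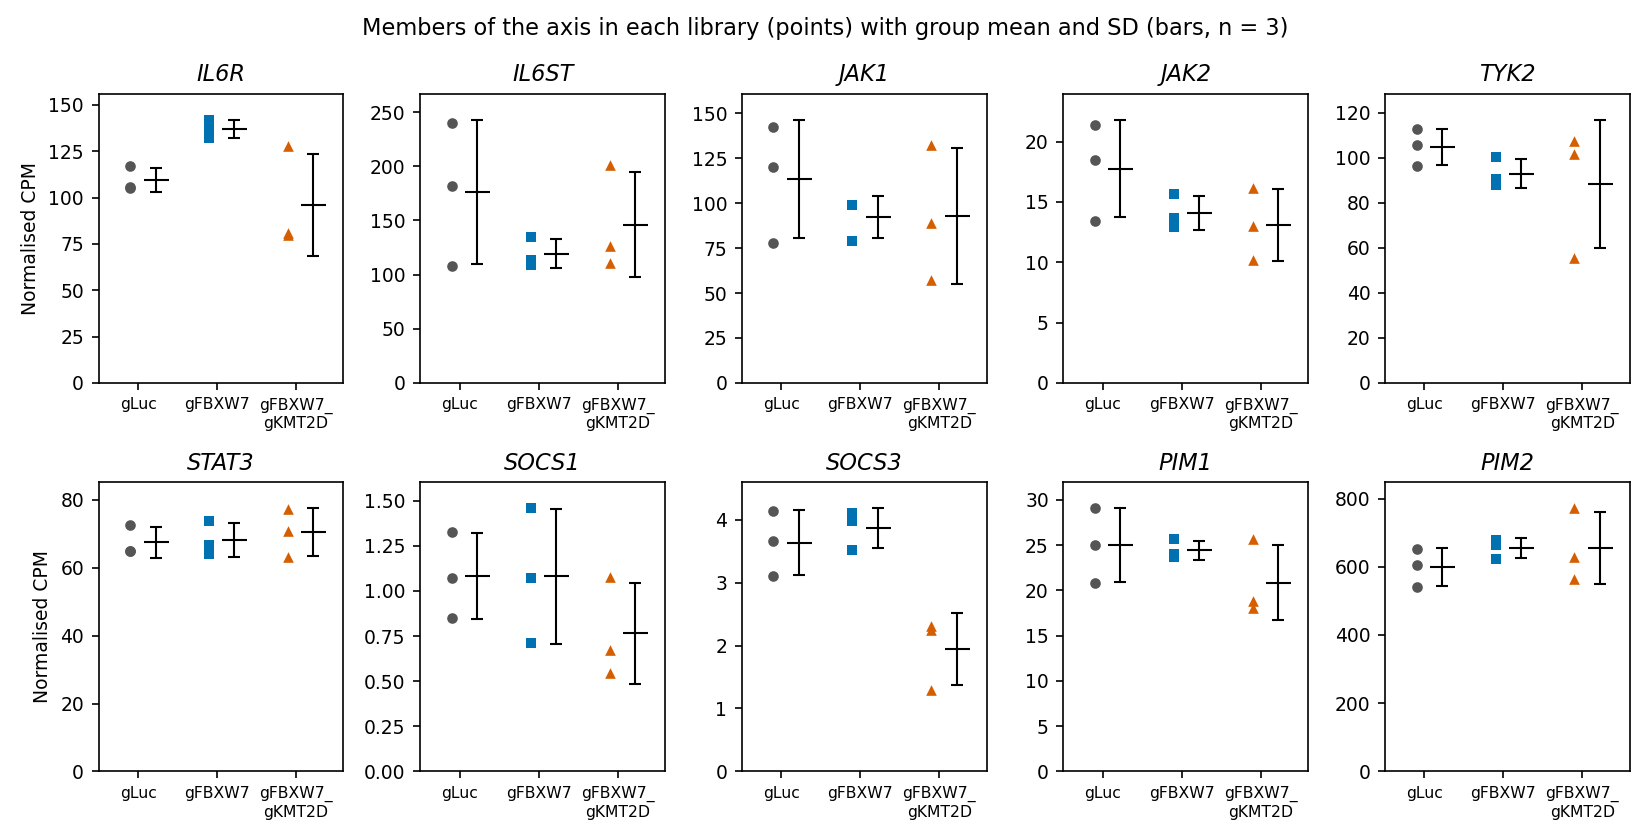
Normalised CPM of each member in each library (points), with the mean and SD of the 3 libraries of a group (bars). SOCS3 is the one member whose 3 gFBXW7_gKMT2D libraries (1.29 to 2.31 CPM) lie below all 6 others, and the 3 gLuc libraries of IL6ST span 2.23-fold.

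None of the 3 kinases that attach to gp130 had an unadjusted p under 0.05 in any comparison, and their groups overlapped in each. JAK1, the kinase on which gp130 signalling mainly depends (chromosome 1, 64833229 to 64966504, - strand), had 77.7, 120 and 143 CPM with gLuc, 78.8, 99.0 and 98.7 CPM with gFBXW7, and 88.9, 132 and 57.4 CPM with gFBXW7_gKMT2D. Its lowest and highest library both fell outside gFBXW7, and the 3 gFBXW7_gKMT2D libraries alone spanned 2.30-fold. Its differences were -0.30 in gFBXW7 against gLuc, -0.29 in gFBXW7_gKMT2D against gLuc and 0.013 in gFBXW7_gKMT2D against gFBXW7, each with an SE of 0.30.

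JAK2, a kinase of the same family that also serves the erythropoietin and growth hormone receptors (chromosome 9, 4984390 to 5128183, + strand), was the scarcest of the 3. It had 13.4, 18.5 and 21.4 CPM with gLuc, 13.7, 12.9 and 15.7 CPM with gFBXW7, and 12.97, 16.2 and 10.2 CPM with gFBXW7_gKMT2D. The upper 2 gLuc libraries were above all the rest, but gLuc library 1 lay among them. The difference in gFBXW7_gKMT2D against gLuc was -0.43 (SE 0.21, 95% interval -0.91 to 0.046, unadjusted p = 0.072, adjusted p = 0.90), and in gFBXW7 against gLuc -0.33 (SE 0.21).

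TYK2, which also serves the interferon and IL-12 receptors (chromosome 19, 10350529 to 10380676, - strand), was at 96.2, 105 and 112.5 CPM with gLuc, 90.5, 100.4 and 87.8 CPM with gFBXW7, and 102, 107.5 and 55.5 CPM with gFBXW7_gKMT2D. A single library, gFBXW7_gKMT2D library 3, was far below the other 8. The differences were -0.17, -0.24 and -0.073 in the 3 comparisons, each with an SE of 0.22.

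STAT3, the transcription factor of the axis (chromosome 17, 42313324 to 42388568, - strand), was the steadiest member. It had 65.0, 64.8 and 72.7 CPM with gLuc, 64.0, 73.8 and 66.7 CPM with gFBXW7, and 63.2, 71.0 and 77.3 CPM with gFBXW7_gKMT2D. All 9 libraries lay within 1.22-fold. The intervals were the narrowest of the 10 members, with differences of 0.014 (95% interval -0.27 to 0.29), 0.063 (-0.22 to 0.34) and 0.049 (-0.23 to 0.33). STAT3 activity is set by phosphorylation, which RNA counts do not measure.

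SOCS3, the inhibitor that binds gp130 and the kinases together (chromosome 17, 78356778 to 78360077, - strand; upstream window above), was the member with the largest differences. It had 3.66, 3.11 and 4.14 CPM with gLuc, 4.11, 3.99 and 3.52 CPM with gFBXW7, and 2.25, 2.31 and 1.29 CPM with gFBXW7_gKMT2D. All 3 gFBXW7_gKMT2D libraries lay below all 6 others, as did those of 229 genes tested (1.73%), and SOCS3 was the one member for which they did. The group means were 3.64 ± 0.517, 3.87 ± 0.312 and 1.95 ± 0.570 CPM (SD, n = 3). They rest on few reads, at 69, 55 and 85 counts in gLuc, 76, 67 and 69 in gFBXW7, and 40, 68 and 18 in gFBXW7_gKMT2D.

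SOCS3 in gFBXW7_gKMT2D differed by -0.96 from gFBXW7 (SE 0.23, 95% interval -1.48 to -0.43, unadjusted p = 0.0023, adjusted p = 0.70). From gLuc it differed by -0.87 (SE 0.23, 95% interval -1.40 to -0.35, unadjusted p = 0.0042, adjusted p = 0.90). It was lower in 3 of 3 libraries in both comparisons, and neither passed the adjusted threshold. In gFBXW7 against gLuc the difference was 0.086 (SE 0.22, adjusted p = 0.96) and the groups overlapped. Over the alternatives that changed 1 choice the difference from gFBXW7 ran from -1.10 to -0.50, with adjusted p from 0.033 to 1, and that from gLuc from -1.02 to -0.47. The values nearest 0 came from log2 of RPKM plus 1, a scale that understates the change of a gene with so low a level.

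SOCS1, which blocks the kinases directly (chromosome 16, 11254405 to 11256200, - strand), was near the limit of these libraries, at 12 to 27 counts each. Its level was 1.33, 0.848 and 1.07 CPM with gLuc, 1.46, 0.714 and 1.07 CPM with gFBXW7, and 0.674, 0.543 and 1.08 CPM with gFBXW7_gKMT2D. The 2 lowest libraries were both gFBXW7_gKMT2D, but library 3 of that group lay in the middle of the others. The differences were 0.0032 (SE 0.34) in gFBXW7 against gLuc, -0.56 (SE 0.36) in gFBXW7_gKMT2D against gLuc and -0.57 (SE 0.36) against gFBXW7. Both of the latter had an unadjusted p of 0.15.

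Whether counting used the strand of the read is not given in the sources used here. SOCS1 lies inside the gene RMI2 on the opposite strand, and IL6R and IL6ST overlap antisense transcripts, so reads of these partners may not be kept apart in the counts. JAK1 and JAK2 each overlap a neighbouring gene at one end.

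The 2 PIM kinases, which phosphorylate substrates in growth and survival pathways, had overlapping groups in every comparison. PIM1 (chromosome 6, 37170203 to 37175426, + strand) had 29.04, 20.9 and 25 CPM with gLuc, 23.7, 24.0 and 25.6 CPM with gFBXW7, and 18.8, 18.1 and 25.6 CPM with gFBXW7_gKMT2D. As for SOCS1, the 2 lowest libraries were gFBXW7_gKMT2D libraries 1 and 2, and library 3 lay with the other groups. The differences were -0.031, -0.26 and -0.23 in the 3 comparisons, each with an SE of 0.17, and unadjusted p-values of 0.86, 0.16 and 0.21.

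PIM2 (chromosome X, 48913182 to 48919024, - strand; upstream window above) had 653, 540.5 and 605 CPM with gLuc, 623, 663 and 678 CPM with gFBXW7, and 629, 564 and 771 CPM with gFBXW7_gKMT2D. With 9562 to 16606 counts per library its counting error was small, and the spread was that between replicates. The differences were 0.13, 0.13 and 0.00032, each with an SE of 0.16, and the widest 95% limits on either side were -0.35 and 0.48.

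Within groups, some members varied together from library to library. IL6ST and JAK1 had their lowest level in the library with the highest ribosomal protein share in 3 of 3 groups, as did 20.4% of all genes tested, and JAK2 and TYK2 did so in 2 groups. IL6R and SOCS1 had their highest level in that library in 3 of 3 groups, as did 19.5% of all genes, and PIM1 and PIM2 did so in 2. The contrast was widest in gFBXW7_gKMT2D library 3, with a ribosomal protein share of 11.2% against 8.07% and 5.46% in its replicates. There the deviations from the group mean in log2 CPM were -0.611 for JAK1, -0.609 for TYK2, -0.514 for SOCS3 and 0.448 for IL6R. The part of the ribosomal protein share in these values was not tested.

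Over the 9 libraries, with group differences left in, pairs of members showed these sets in part. This is a description without a test, since the points share libraries and their ribosomal protein share. Pearson's r of log2 CPM was 0.91 between JAK1 and JAK2, 0.88 between IL6ST and JAK1, and 0.83 between JAK1 and TYK2. It was 0.80 between SOCS1 and PIM1 and 0.77 between IL6R and PIM1. Other pairs were looser, with r of 0.55 between IL6ST and TYK2 and 0.37 between SOCS1 and PIM2. The 2 receptor chains did not vary together, with r of -0.53, and TYK2 and PIM2 ran opposite, with r of -0.83. STAT3 had no r beyond 0.45 in size with any other member.

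**Figure D4:**
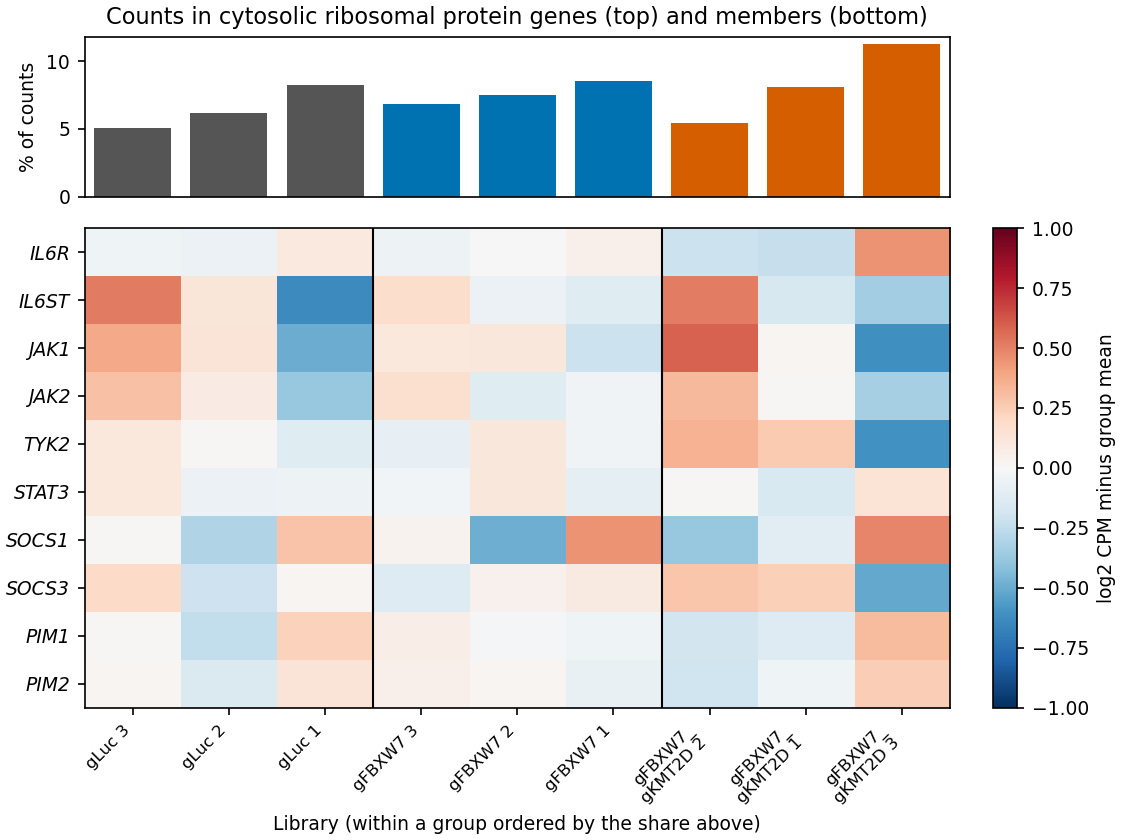
The upper panel gives the percent of counts in 84 cytosolic ribosomal protein genes in each library, and the lower panel each member's deviation from its group mean in log2 CPM. In gFBXW7_gKMT2D library 3 (11.2%), JAK1 and TYK2 lie lowest (-0.611 and -0.609), while SOCS1 (0.490) and IL6R (0.448) lie highest.

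In the comparison of gFBXW7_gKMT2D with gFBXW7, the calls changed when a term for shared variation between replicates was added. A surrogate variable is 1 value per library, estimated from all genes with the groups held in the model, that takes up shared variation between replicates. Its values were 0.687 in gFBXW7_gKMT2D library 3 and -0.464 in gLuc library 3, the libraries with the highest and the lowest ribosomal protein share.

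With that term in the edgeR fit, IL6R in gFBXW7_gKMT2D against gFBXW7 differed by -0.55 (SE 0.093, adjusted p = 0.014) and SOCS3 by -0.98 (SE 0.19, adjusted p = 0.033). Both were then called, as were 0.943% of all genes (125 genes), 0.664% in the lower direction. Against gLuc neither was called, with IL6R at -0.35 (adjusted p = 0.24) and SOCS3 at an adjusted p of 0.16, beside 0.407% of all genes. In gFBXW7 against gLuc no gene was called.

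The calls with the surrogate variable depended on single libraries. Both stayed when any 1 gLuc library or gFBXW7_gKMT2D library 1 was left out. Neither stayed without gFBXW7 library 1, 2 or 3 or without gFBXW7_gKMT2D library 2, where IL6R had adjusted p-values of 0.061, 0.14, 0.059 and 0.068, and SOCS3 0.13, 0.17, 0.056 and 0.18. Without gFBXW7_gKMT2D library 3, IL6R was called against gFBXW7 (-0.71, adjusted p = 3.6e-05) and against gLuc (-0.44, adjusted p = 0.0013), and SOCS3 was not called (adjusted p = 0.083 against gFBXW7). The direction of both was the same in each of these fits. They were added after the data were seen. Calls over all genes were not counted in them, so these calls have no background share beside them.

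Genes whose level ran most like a member's were listed by Pearson's r of log2 CPM over the 9 libraries, again as a description. For SOCS3 these were TBC1D25 (0.973), RPA1 (0.966) and CTTN (0.958), and for IL6R they were ZNF394 (0.960), ACBD3 (0.947) and TPST2 (0.943). JAK1 ran closest with ABHD2, BUB1B and ARIH1 (each 0.996), IL6ST with QSER1 (0.995), TYK2 with BCR (0.995) and JAK2 with CEP44 (0.987). JAK2's list also held GSTCD (0.986) and ADAM10 (0.985), a protease that can shed the IL-6 receptor. How many genes reach such values was not counted. The highest r was 0.938 for STAT3 with GPR155, 0.950 for SOCS1 with RMDN2, 0.933 for PIM1 with GSDMD and 0.949 for PIM2 with FGF8.

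The wider pathway was covered by 87 genes in 7 lists, of which 69 were tested and none was called in any of the 3 comparisons. An unadjusted p under 0.05 was reached by 4 genes higher and 0 lower in gFBXW7 against gLuc, by 3 higher and 1 lower in gFBXW7_gKMT2D against gLuc, and by 2 higher and 4 lower in gFBXW7_gKMT2D against gFBXW7. Over all genes tested, 1.58%, 3.61% and 4.22% did so in these comparisons. Most of the 10 cytokine genes had few reads or none. CLCF1 had 5 to 17 counts per library, and IL11 had at most 5. IL6 itself had 1 read in 1 of the 9 libraries, and LIF, CNTF and EBI3 had 0 in all 9, where a count of 0 allows up to 0.111 to 0.184 CPM (3 counts, counting error only). OSM, which encodes oncostatin M, another ligand of gp130, was the only 1 of 10 cytokine genes tested, at 34 to 67 counts per library and differences of 0.10, -0.32 and -0.42 in the 3 comparisons.

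Among 15 other receptor chains that use JAKs, 12 were tested. The 2 with the highest mean log2 CPM, a scale that does not correct for length, were IL2RG, the common gamma chain, and LIFR, the partner of gp130 in the leukaemia inhibitory factor receptor. IL2RG differed by 0.0033, -0.14 and -0.15 and LIFR by -0.52, -0.48 and 0.042 in the 3 comparisons. IL21R, the receptor chain for IL-21, had 3.23, 2.94 and 2.97 CPM with gLuc, 3.89, 3.21 and 3.46 CPM with gFBXW7, and 1.80, 1.94 and 2.15 CPM with gFBXW7_gKMT2D. Its 3 gFBXW7_gKMT2D libraries lay below all 6 others, as did those of 229 genes tested (1.73%), SOCS3 among them. The IL21R values rest on 30 to 72 counts per library.

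IL21R differed by -0.85 from gFBXW7 (SE 0.17, unadjusted p = 0.00071, adjusted p = 0.37) and by -0.64 from gLuc (SE 0.18, unadjusted p = 0.0047, adjusted p = 0.90). With 1 surrogate variable, it (-0.84, adjusted p = 0.033) and IL27RA, a partner of gp130 in the IL-27 receptor (-0.43, adjusted p = 0.023), were the 2 of 69 pathway genes called in gFBXW7_gKMT2D against gFBXW7, beside 0.943% of all genes tested (0.664% lower). IL27RA is named outside the rule for named genes, after its values were seen. The median of the 12 receptor chains was -0.028, -0.22 and -0.026 in the 3 comparisons.

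The 8 other JAK, STAT and PIM genes were all tested, with medians of -0.062, -0.21 and -0.077. In gFBXW7_gKMT2D against gLuc all 8 had a negative sign, from -0.45 to -0.015, and none had an unadjusted p under 0.05. STAT2, which carries interferon signals, had adjusted p-values of 0.90 or more in every comparison. PIM3, the third PIM kinase, differed by -0.33 in gFBXW7_gKMT2D against gFBXW7 (SE 0.13, unadjusted p = 0.028, adjusted p = 1.0).

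All 15 further negative regulators were tested, with medians of -0.11, -0.043 and 0.035. PTPN6, the phosphatase SHP-1, had 333, 313 and 272 CPM with gLuc, 371, 381 and 336 CPM with gFBXW7, and 312, 263 and 224 CPM with gFBXW7_gKMT2D. It differed by -0.44 in gFBXW7_gKMT2D against gFBXW7 (SE 0.16, unadjusted p = 0.018, adjusted p = 1.0). These 2 groups did not overlap, as for 5.20% of all genes tested in that direction. PTPN1, a phosphatase that acts on JAK2 and TYK2, differed by at most 0.21 in size (-0.21 in gFBXW7_gKMT2D against gLuc). PTPRC, which encodes CD45, a phosphatase that can act on JAKs, differed by 1.59 in gFBXW7_gKMT2D against gFBXW7 (SE 0.35, unadjusted p = 0.0012, adjusted p = 0.52), on 4 to 37 counts per library.

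The 8 adaptors and sheddases of the receptor had medians of -0.26, -0.25 and -0.051, and none had an unadjusted p under 0.05. The 3 named ones, SHC1, PTPN11 (SHP-2) and GRB2, link gp130 to the RAS pathway, and their differences lay between -0.35 and 0.089 in all 3 comparisons.

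Of 20 known STAT3 target genes 15 were tested, with medians of -0.067, 0.067 and -0.010. CCND2 (cyclin D2) and MCL1 (a survival factor of the BCL2 family), the 2 with the highest mean log2 CPM, had differences between -0.27 and -0.067. JUNB, an AP-1 subunit, had 28.1, 22.2 and 22.1 CPM with gLuc, 33.0, 32.4 and 33.6 CPM with gFBXW7, and 34.4, 25.5 and 42.6 CPM with gFBXW7_gKMT2D. It differed by 0.45 in gFBXW7 against gLuc (SE 0.19, unadjusted p = 0.037) and by 0.50 in gFBXW7_gKMT2D against gLuc (SE 0.19, unadjusted p = 0.024), with adjusted p-values of 0.96 and 0.90.

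Of 11 PIM kinase substrates 10 were tested, with medians of -0.00065, 0.0077 and 0.064. EIF4B, a translation initiation factor, and FOXO3, a forkhead transcription factor, differed by at most 0.23 in size (0.23 for FOXO3 in gFBXW7_gKMT2D against gFBXW7). CDKN1A, the cell cycle inhibitor p21, had 1.48, 1.19 and 1.32 CPM with gLuc, 2.05, 2.38 and 1.83 CPM with gFBXW7, and 3.54, 2.75 and 1.94 CPM with gFBXW7_gKMT2D. Its values rest on 21 to 81 counts per library. It differed from gLuc by 0.65 in gFBXW7 (SE 0.26, unadjusted p = 0.032, adjusted p = 0.96) and by 1.05 in gFBXW7_gKMT2D (SE 0.25, unadjusted p = 0.0020, adjusted p = 0.77).

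**Figure D5:**
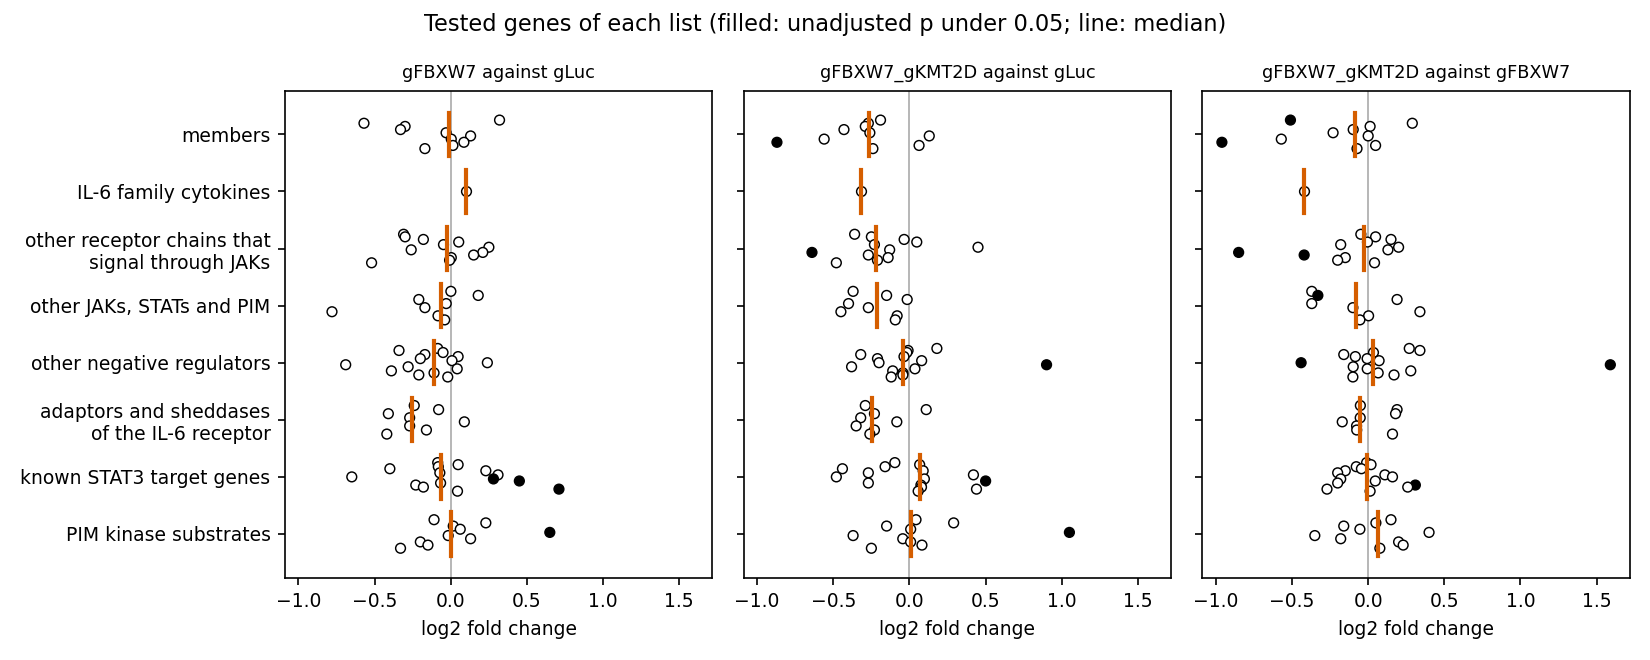
Log2 fold change of the members and of the tested genes of each of the 7 pathway lists in the 3 comparisons (points), with the list median (line). Filled points have an unadjusted p under 0.05. They are at most 6 of the 69 pathway genes in a comparison, besides the members SOCS3 and IL6R, and none was called after adjustment.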

How the data were processed

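Poly(A) RNA of the 9 OPM-1 libraries was made into strand-specific dUTP libraries, per the labels' protocols. Per the submitters' processing notes, the tools were STAR, featureCounts, Trimmomatic and DESeq2 with genome build GRCh38; their versions are not given in the sources used here. Per the file headers, the deposited values are read counts (whole, not normalised) and RPKM. Recomputing RPKM from counts, listed lengths and totals gave the deposited RPKM within a relative difference of 8.5e-07. An unnamed row equal to the library total was left out, and 12580 gene rows held no read.

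The count analysis used edgeR 4.0.16 (R 4.3.3): filterByExpr with the groups, TMM, a quasi-likelihood fit with group as the only term, glmQLFTest, Benjamini-Hochberg adjustment over 13262 genes and a threshold of 0.05. SEs were derived from each fold change and F value. The pipeline was tested on simulated data. Replicate pairs of a group differed beyond counting noise (chi-squared of 6.36 to 231 per degree of freedom), so no library repeats another. Depth and counting error bear most on SOCS1 and SOCS3, and intervals of zero counts cover counting error only.

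Alternatives were DESeq2 1.42.0 size factors and Wald test, upper quartile scaling, no filter, a mean of at least 50 reads, limma-voom and limma 3.58.1 on log2 of RPKM plus 1, a replicate block, the 6 compared libraries alone, 1 surrogate variable (sva 3.50.0), the gene length trend removed (lowess, span 0.3), and each library left out. The surrogate variable with each library left out was added after seeing the data, for IL6R, SOCS3 and the count of called members. Coordinates are GENCODE v29, 1-based on GRCh38.

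All members were named, and from each pathway list any called gene, the 2 with the highest mean log2 CPM and the 1 with the smallest p, of which 1 gene is not reported here. For likeness, the 3 genes with the highest r to each member were listed (log2 CPM, prior count 2). The members and lists were chosen with earlier results of these data known. Figures were drawn with matplotlib 3.10.9 in Python 3.11.15, with pandas 2.3.3 and scipy 1.17.1.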

Additional observations from a re-analysis of the deposited data

How the results depend on the processing

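No member was called in any comparison under the main model or under any alternative that changed 1 choice except 1 surrogate variable, which called 2 (IL6R and SOCS3) in gFBXW7_gKMT2D against gFBXW7. Adding that variable and leaving out 1 library gave 0 to 2 called members there and 0 to 1 in gFBXW7_gKMT2D against gLuc. Calls over all genes were not counted in those fits. Without the variable, leaving out single libraries gave 0 in each comparison. SOCS3 and IL6R kept their negative sign in gFBXW7_gKMT2D against both other groups in every alternative run.

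Over all genes, the main counts of calls were 0 in gFBXW7 against gLuc, 7 in gFBXW7_gKMT2D against gLuc and 8 in gFBXW7_gKMT2D against gFBXW7. In that order they were 1, 20 and 31 with the DESeq2 Wald test, 0, 21 and 33 without the filter, 0, 4 and 3 with limma on RPKM, 0, 2 and 0 with the 6 compared libraries alone, 0, 54 and 125 with the surrogate variable, 0, 7 and 5 with upper quartile scaling, and 0, 8 and 5 with the length trend removed. Leaving out single libraries gave 0, 2 to 8 and 0 to 7.

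With the replicate block, members called were 0 in each comparison and genes called 0, 2 and 2. Same-numbered libraries were not treated as pairs, since the correlations of their deviations ran from -0.59 to 0.45.

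Some differences changed sign. In gFBXW7 against gLuc, JAK1 was 0.0072 with the surrogate variable, STAT3 was -0.024 on RPKM, and SOCS1 was -0.0022 without the filter, -0.028 with limma-voom, -0.026 on RPKM, -0.00049 with 6 libraries, -0.013 with the block, -0.19 with the surrogate variable and -0.18 with the length trend removed. In gFBXW7_gKMT2D against gLuc, IL6ST was 0.0011 with the surrogate variable and STAT3 was -0.011 on RPKM. In gFBXW7_gKMT2D against gFBXW7, JAK1 was -0.064 with limma-voom, -0.083 on RPKM, -0.0083 with the block, -0.038 with the surrogate variable and -0.0081 with the length trend removed, and PIM2 was -0.0063 without the filter, -0.00015 with the DESeq2 Wald test, -0.044 on RPKM, -0.010 with the block and -0.021 with the surrogate variable. The cause was not tested.

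Leaving out single libraries turned the sign, in gFBXW7 against gLuc, of STAT3 (-0.061 to 0.063), SOCS1 (-0.27 to 0.20), SOCS3 (-0.013 to 0.18) and PIM1 (-0.14 to 0.093). In gFBXW7_gKMT2D against gLuc it did so for IL6ST (-0.58 to 0.026), TYK2 (-0.41 to 0.0018), STAT3 (-0.0060 to 0.13) and PIM2 (-0.0066 to 0.22). In gFBXW7_gKMT2D against gFBXW7 it did so for IL6ST (-0.011 to 0.47), JAK1 (-0.33 to 0.27), JAK2 (-0.28 to 0.058), TYK2 (-0.24 to 0.18), STAT3 (-0.015 to 0.13) and PIM2 (-0.13 to 0.096). Without a change of sign, leaving out single libraries also moved values by over 1.5 times. In gFBXW7 against gLuc the ranges were -0.82 to -0.29 for IL6ST, -0.51 to -0.11 for JAK1, -0.50 to -0.19 for JAK2 and 0.057 to 0.19 for PIM2. In gFBXW7_gKMT2D against gLuc they were -0.45 to -0.073 for IL6R, -0.63 to -0.034 for JAK1, -0.62 to -0.26 for JAK2, -0.85 to -0.33 for SOCS1 and -0.44 to -0.14 for PIM1. In gFBXW7_gKMT2D against gFBXW7 they were -0.77 to -0.40 for IL6R, -0.85 to -0.29 for SOCS1 and -0.40 to -0.14 for PIM1. Counting error is largest for SOCS1, at 12 to 27 counts per library, and SOCS3 in gFBXW7_gKMT2D library 3, at 18.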
